A study of Mus musculus with 4 samples.

Results

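DNA methylation in mammals is written by methyltransferases, copied at each cell division and removed by oxidation. DNMT3A and DNMT3B place methyl groups on cytosines that carried none, whereas DNMT1 restores the mark on the new strand after replication, guided by UHRF1, which recognises DNA methylated on 1 strand. The enzymes TET1, TET2 and TET3 oxidise 5-methylcytosine, after which the base is lost by dilution or excised by TDG and repaired. In blood cells, DNMT3A and TET2 are known as regulators of stem cell self-renewal, and loss of TET2 and TET3 together impairs early B cell development. The 7 genes *Dnmt1*, *Dnmt3a*, *Dnmt3b*, *Uhrf1*, *Tet1*, *Tet2* and *Tet3* were taken as the writers and erasers. Every probe whose gene name on the array is one of these was included, which gave 15 of 39429 probes: 1 each for *Dnmt1* and *Dnmt3a*, 2 each for *Uhrf1* and *Tet2*, and 3 each for *Dnmt3b*, *Tet1* and *Tet3*. No other probe carried an accession of these genes.

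The cells were Lin- hematopoietic progenitor cells (HPCs) from the fetal liver (FL) of mouse embryos that lack *Ebf1*, a transcription factor required for the B lineage, so that the control carries the *Ebf1* deletion too. One group was infected with an MDH1-PGK-GFP retrovirus without an insert (EMPTY, 2 arrays) and the other with the same virus carrying *Mir195* (*Mir195*, 2 arrays). Both were cultured on OP9, a mouse stromal cell line, with SCF, IL-7 and Flt3-ligand at 10 ng/mL each, and 100 ng of RNA from each culture was labelled with Cy3 for an array with 1 dye. The comparison asks what forced *Mir195* expression changes in cells without EBF1. Nothing says whether the 2 arrays of a virus came from separate cultures or embryos. Each p thus rests on the spread between these arrays, which may be technical. In limma the spread of a probe is also drawn towards that of all tested probes. In cells taken in bulk, fewer cells of a type and less RNA per cell cannot be told apart.

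All 4 arrays lay on the same slide, EMPTY in the first positions and *Mir195* in the last, so that position and virus cannot be told apart. Between arrays, the 75th percentile ranged from 902.5 to 1127 units of signal and the number of probes well above background from 23658 to 24672, with no saturated spot. The *Ebf1* probe was well above background on all arrays (1.85 to 2.03 on the log2 scale relative to the 75th percentile), and whether it lies within the disrupted stretch was not determined, so it does not check the genotype. All 7 progenitor markers examined, among them *Kit*, *Flt3* and *Il7r*, were well above background on every array. The labels place the cells around the pro-B stage. Of 7 B cell markers, 4 (*Blnk*, *Cd22*, *Cd79b* and *Vpreb1*) were well above background on every array. *Cd79a* was so on 2 arrays, 1 marker was on none, and 1 had no probe under its name. All 7 T cell and all 7 NK cell markers were well above background on every array.

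The miRNA expressed by the virus acts through its seed, bases 2 to 8, which pairs with sites in target transcripts. Of 1679 mature mouse miRNA names in RefSeq (GRCm38.p6), 10 carry the same seed, and 6 of them are shown 5′ to 3′ with the seed in capitals, because seed-matched sites are shared by all of these miRNAs and not read by miR-195 alone. The mature miR-195a-5p lies at chr11:70235062-70235082 on the plus strand and miR-497a-5p at chr11:70234730-70234751 on the same strand.
mmu-miR-195a-5p: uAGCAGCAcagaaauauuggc
mmu-miR-195b: uAGCAGCAcagaaauaguagaa
mmu-miR-15a-5p: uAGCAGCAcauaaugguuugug
mmu-miR-15b-5p: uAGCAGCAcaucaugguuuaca
mmu-miR-16-5p: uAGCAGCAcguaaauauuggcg
mmu-miR-497a-5p: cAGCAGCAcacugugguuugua

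Among the 7 genes, *Tet3* alone stands in the study's list of 705 predicted *Mir195* targets, entered there by TargetScan. None of the 15 probes, each 60 bases long, contains the 7 letters that pair with the seed, which occur in 0.804% of all probes on the array. This says nothing of the rest of these transcripts, since their target sites were not analysed here.

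No writer or eraser passed the test between the viruses. Of the 15 probes, 14 were tested, and 0 of them had an adjusted p under 0.05 in limma, as did 0% of the 23723 probes tested in all, so that the lack of a call is not particular to these genes. The lowest adjusted p was 0.668 for a member probe and 0.101 over all probes. No member probe had an unadjusted p under 0.05 in limma in either direction, beside 6.25% of all probes in the higher direction and 2.1% in the lower. The methods' t-test on log2 ratios of same-numbered arrays gave 1 member probe with an unadjusted p under 0.05, that of *Dnmt3a*, and none after Benjamini-Hochberg adjustment. At this size, 2 against 2, the lowest p that exact two-sided permutation allows is 0.333.

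The differences were small and leaned to higher values with *Mir195*. The mean was higher with *Mir195* for 11 of 14 probes, beside 12585 of all 23723 tested. The 14 probes stand for only 7 genes. Their log2 fold changes ran from -0.04 to 0.34, and the median over the 7 genes, each by its probe of highest mean signal, was 0.14 (6 of 7 above 0). The median over all 19037 genes tested was 0.01, with 9942 above 0. For 6 of 14 probes (42.9%) the EMPTY pair lay entirely below the *Mir195* pair, compared with 23.4% of all probes tested, and for 0 entirely above it, compared with 14.4% of all. Those 6 probes belong to *Dnmt3a*, *Uhrf1*, *Tet1*, *Tet2* with both of its probes, and *Tet3*. Before scaling, their signals either overlapped between the viruses or were lower with *Mir195*, as given for each below. With the arrays scaled by their median in place of the 75th percentile, 3 of 14 probes were without overlap, the pair of *Tet2* and 1 of *Tet3*, and the shares over all probes became 14% higher and 25.6% lower. Left out in turn, EMPTY replicate 2 and *Mir195* replicate 1 moved the median over the 7 genes to 0.28 and 0.094. With median scaling it was 0.047, with 5 of 7 genes above 0, where the median over all probes was -0.084.

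Among the arrays, EMPTY replicate 1 stood apart for these genes. It was the lowest of the 4 arrays for 10 of the 14 probes (71.4%, compared with 32.6% of all probes) and the highest for none of them. *Mir195* replicate 1 was the highest for 8 probes (57.1%, compared with 21.9%). *Mir195* replicate 2 was the highest for 5 (35.7%), near its share over all probes (34.3%). Over the 14 probes, EMPTY replicate 1 differed from EMPTY replicate 2 by a median of 0.18 on the log2 scale, more than EMPTY replicate 2 differed from either *Mir195* array (0.13 for each). Over all tested probes, *Mir195* replicate 2 correlated least with the other arrays (r = 0.9832 to 0.9865). The highest correlation was between EMPTY replicate 2 and *Mir195* replicate 1 (r = 0.997). Over the same probes the EMPTY arrays differed by a median of 0.147 and the *Mir195* arrays by 0.194. There EMPTY replicate 2 differed from *Mir195* replicate 1 by 0.0951 and from *Mir195* replicate 2 by 0.228. Only the order against *Mir195* replicate 2 was thus particular to these genes.

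**Figure D1:**
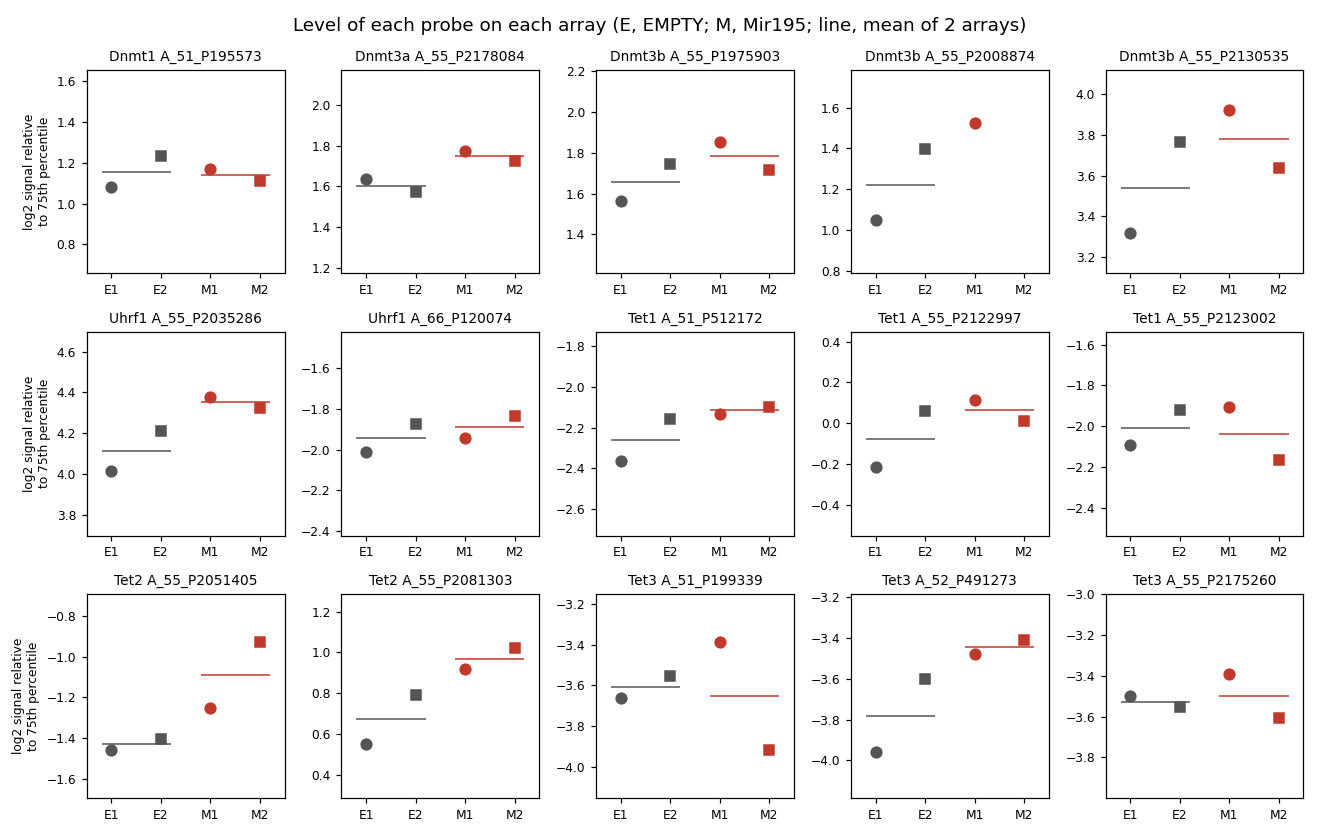
Log2 signal of each of the 15 probes relative to the 75th percentile of its array (y axis) on the 4 arrays (x axis; E, EMPTY in grey; M, *Mir195* in red; circles, replicate 1; squares, replicate 2; line, mean of the arrays of a virus). The y axes span the same width but start at different values, EMPTY replicate 1 is the lowest point in 10 of the 14 tested panels, and the *Dnmt3b* panel with 3 points is the probe whose spot on *Mir195* replicate 2 was rejected.

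The maintenance pair, *Dnmt1* and *Uhrf1*, was measured by 3 probes. *Dnmt1* (chr9:20907206-20959888, GRCm38.p6 as all positions here) read 1.08 and 1.23 with EMPTY and 1.17 and 1.11 with *Mir195*. The *Mir195* values lay between the EMPTY values, with means of 1.16 ± 0.11 and 1.14 ± 0.04 (SD, n = 2 each). The log2 fold change of *Dnmt1* was -0.02 (95% interval -0.34 to 0.31), the lowest upper bound of any member, so that a rise of over 1.24-fold lay outside the interval.

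*Uhrf1* (chr17:56303337-56323486) read 4.02 and 4.21 with EMPTY and 4.38 and 4.32 with *Mir195* on its brighter probe. The viruses were apart, with a log2 fold change of 0.24 (adjusted p = 0.753 in limma, standard error 0.13). Before scaling, the signals of this probe were nearly flat at 18236 and 19067 with EMPTY and 18769 and 18447 with *Mir195*, while the 75th percentile to which they are set went from 1127 and 1029 with EMPTY to 902.5 and 921.9 with *Mir195*. The other *Uhrf1* probe read -2.01 and -1.87 with EMPTY and -1.94 and -1.83 with *Mir195*, with groups that overlap and a log2 fold change of 0.05 (95% interval -0.28 to 0.38).

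The de novo methyltransferase *Dnmt3a* (chr12:3801559-3914443) read 1.63 and 1.57 with EMPTY and 1.77 and 1.73 with *Mir195*. The groups did not overlap, and the replicates of each lay close together (SD 0.04 and 0.03). Before scaling, the signals overlapped, at 3498.9 and 3064.9 with EMPTY and 3080.5 and 3047.7 with *Mir195*. The difference was 0.14 in log2 fold change (95% interval -0.16 to 0.45, adjusted p = 0.847 in limma).

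*Dnmt3b* (chr2:153649411-153687730), the other de novo enzyme, has 3 probes. The brightest read 3.32 and 3.76 with EMPTY and 3.92 and 3.64 with *Mir195*. EMPTY replicate 1 stood below the other 3 arrays, the groups overlapped, and the log2 fold change was 0.24 (standard error 0.21, 95% interval -0.30 to 0.77). This probe depended most on single arrays among those of the writers: its log2 fold change fell to 0.01 when EMPTY replicate 1 was left out and rose to 0.46 when EMPTY replicate 2 was. A further probe read 1.56 and 1.75 with EMPTY and 1.85 and 1.72 with *Mir195*, again with overlap and a log2 fold change of 0.13. The last *Dnmt3b* probe read 1.05 and 1.40 with EMPTY and 1.52 on *Mir195* replicate 1, and its spot on *Mir195* replicate 2 was marked as not uniform, so it was not tested.

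**Figure D2:**
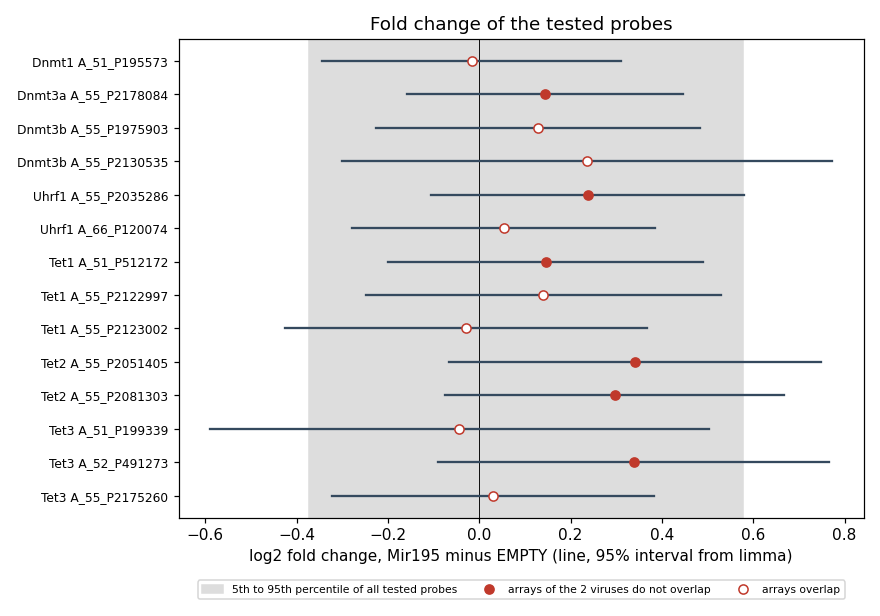
Log2 fold change (*Mir195* minus EMPTY, x axis) of the 14 tested probes (rows), with the 95% interval from limma as a line; filled points mark probes whose *Mir195* values all exceed their EMPTY values, and the grey band runs from the 5th to the 95th percentile of all tested probes, -0.37 to 0.58. Every interval holds 0, and all 14 points lie inside the band.

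Of the erasers, *Tet2* (chr3:133463677-133545136) had the largest difference as a mean of its probes. Its brighter probe read 0.55 and 0.79 with EMPTY and 0.92 and 1.02 with *Mir195*, and the other read -1.46 and -1.40 with EMPTY and -1.25 and -0.93 with *Mir195*. Both *Mir195* arrays exceeded both EMPTY arrays on either probe after scaling. Before it, the viruses overlapped on both. The signals were 1652.2 and 1782.7 with EMPTY and 1702.5 and 1870.7 with *Mir195* on the brighter probe. On the other they were 410.2 and 389.4 with EMPTY and 379.1 and 484.7 with *Mir195*. The log2 fold changes were 0.30 (standard error 0.14, adjusted p = 0.685 in limma) and 0.34 (standard error 0.16, adjusted p = 0.668), equal to 1.23-fold and 1.27-fold. As a mean of the pair, *Tet2* gave 0.32 (standard error 0.14, adjusted p = 0.643 in limma over genes). Under the alternatives the log2 fold change of the first ran from 0.18 (without EMPTY replicate 1) to 0.42 and that of the second from 0.18 (without *Mir195* replicate 2) to 0.50, with the lowest adjusted p at 0.327 and 0.188.

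*Tet1* (chr10:62804570-62887469) was described by 3 probes that did not move alike. The brightest read -0.22 and 0.06 with EMPTY and 0.11 and 0.01 with *Mir195*, with a log2 fold change of 0.14 and groups that overlap. That value was 0.0006 when EMPTY replicate 1 was left out and 0.28 when EMPTY replicate 2 was. A dimmer probe read -2.36 and -2.16 with EMPTY and -2.13 and -2.10 with *Mir195*, where the groups were apart by less than the gap between the EMPTY arrays (log2 fold change 0.15, standard error 0.13, adjusted p = 0.873 in limma). Before scaling, its signals were lower with *Mir195*, at 219.2 and 231 with EMPTY and 206.1 and 215.5 with *Mir195*. The other dim probe read -2.09 and -1.92 with EMPTY and -1.91 and -2.17 with *Mir195*, and its log2 fold change was -0.03. The mean over the *Tet1* probes was 0.09.

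*Tet3* (chr6:83362373-83457208), the predicted target, was dim on all of its 3 probes, with signals of 61.1 to 89.1 on 2 of them after a local background of 38 to 39 had been subtracted. The first of these read -3.66 and -3.55 with EMPTY and -3.39 and -3.92 with *Mir195*, so that the *Mir195* arrays were the highest and the lowest (log2 fold change -0.04, standard error 0.21). The next read -3.96 and -3.60 with EMPTY and -3.48 and -3.41 with *Mir195*, both above EMPTY (log2 fold change 0.34, standard error 0.16, adjusted p = 0.693 in limma), with 0.16 when EMPTY replicate 1 was left out and 0.52 when EMPTY replicate 2 was. Before scaling, its signals overlapped, at 72.5 and 84.8 with EMPTY and 81.1 and 86.8 with *Mir195*. The brightest *Tet3* probe read -3.50 and -3.55 with EMPTY and -3.39 and -3.61 with *Mir195*, with a log2 fold change of 0.03 (95% interval -0.32 to 0.38). The *Tet3* probes thus gave no common direction, and their mean was 0.11 (standard error 0.14, adjusted p = 0.907 in limma over genes). The lowest bound of the intervals of all 14 member probes, 0.665-fold, was that of the first *Tet3* probe.

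Promoter sequence was examined for features that the choice of genes did not use. RefSeq gave 12 windows for the 7 genes, each of 300 bases (250 before a start site and 50 after). Their median ratio of observed to expected CpG was 0.651, compared with 0.384 over all 32851 windows. The ratio ran from 0.101 in 1 *Dnmt1* window to 1.17 in that of *Tet2*. Genes with more windows weigh more in this median, and it does not describe each gene. An E2F-type motif, TTTCGCGC or TTTGGCGC on either strand, was found in 0.813% of all windows and, among the writers and erasers, in 1 window of each maintenance gene. The stretches are shown on the strand of the gene with the motif in capitals, because they set *Dnmt1* and *Uhrf1* apart from the others in these letters.
*Dnmt1*, chr9:20952824-20952853, minus strand: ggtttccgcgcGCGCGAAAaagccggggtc
*Dnmt1*, chr9:20952574-20952603, minus strand: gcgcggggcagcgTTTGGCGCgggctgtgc
*Uhrf1*, chr17:56304117-56304146, plus strand: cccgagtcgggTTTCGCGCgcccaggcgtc

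The match is one of letters and not a measured site. Genes of S phase, with which maintenance methylation is coupled, were tested beside these: 0 of 18 tested were called, 12 were above 0 and 6 below, and the median log2 fold change was 0.02. *Pcna*, the replication clamp that also recruits DNMT1, read lower on both *Mir195* arrays (log2 fold change -0.10), whereas *Tyms*, which makes thymidylate, read higher on both (0.22), and neither passed the test (adjusted p = 0.901 and 0.815 in limma). *Gins2* and *Cdt1*, needed for replication to start, overlapped between the viruses (-0.17 and 0.12).

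The other genes of the pathway showed no call either. Over 5 lists of its further genes, 0 of 48 tested passed the adjusted threshold in limma, and 0 had an unadjusted p under 0.05. Each list is described by its counts and its median, beside the median of 0.01 and the shares of 23.4% and 14.4% given for all probes. Of all 19037 tested genes, 9942 were above 0.

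Among the partners of the writers, 8 of 11 tested genes were above 0, with a median of 0.12, and 5 were higher on both *Mir195* arrays and 0 lower. These included *Ehmt1*, a histone H3K9 methyltransferase (0.30, adjusted p = 0.702 in limma), and *Hells*, a chromatin remodeller required for DNA methylation (0.21, adjusted p = 0.739). *Cdca7*, which recruits HELLS, gave 0.27 with overlap, since EMPTY replicate 1 at 3.63 was again the lowest array and the other EMPTY array at 3.97 exceeded *Mir195* replicate 2 at 3.95 by less than 0.1. *Dnmt3l*, the inactive cofactor of the de novo enzymes, varied too much between arrays to be read (-0.23, standard error 0.64).

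The readers, which bind methylated CpG, had 4 of 9 genes above 0 and a median of -0.01. *Zbtb38* was lower on both *Mir195* arrays (-0.24, adjusted p = 0.772 in limma), and *Mbd4* was higher on both (0.12). In the methyl donor cycle, which supplies S-adenosylmethionine, 9 of 10 tested genes were above 0, but within narrow limits (-0.03 to 0.15, median 0.07), and the widest differences were those of *Shmt1* (0.15), *Gnmt* (0.14) and *Mtrr* (0.13).

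The genes that act after and beside the TET enzymes went both ways. In the repair arm of demethylation, 4 of 11 tested genes were above 0 and the median was -0.07, with 1 higher on both *Mir195* arrays and 4 lower. The one that was higher was *Tdg*, the glycosylase that removes oxidised methylcytosine: it read -2.07 and -2.26 with EMPTY and -1.96 and -1.81 with *Mir195* (log2 fold change 0.28, standard error 0.14, adjusted p = 0.708 in limma). *Neil1*, another glycosylase, was lower on both *Mir195* arrays (-0.27, adjusted p = 0.693), and *Gadd45g*, a stress-induced gene linked to demethylation, overlapped (-0.33, standard error 0.31).

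Among the TET cofactors and partners, 5 of 7 tested genes were above 0, with a median of 0.10. *Ogt*, a glycosyltransferase that binds TET2 and TET3 and itself a predicted *Mir195* target, read -1.16 and -1.07 with EMPTY and -1.03 and -0.39 with *Mir195*. Its difference rested on *Mir195* replicate 2, since the other *Mir195* array lay within 0.1 of an EMPTY array (log2 fold change 0.41, standard error 0.24, adjusted p = 0.777 in limma). *Idh1*, an enzyme that makes the TET cosubstrate 2-oxoglutarate, was lower on both *Mir195* arrays (-0.26, adjusted p = 0.709), and *D2hgdh*, which clears the TET inhibitor D-2-hydroxyglutarate, was higher on both (0.24, adjusted p = 0.789).

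**Figure D3:**
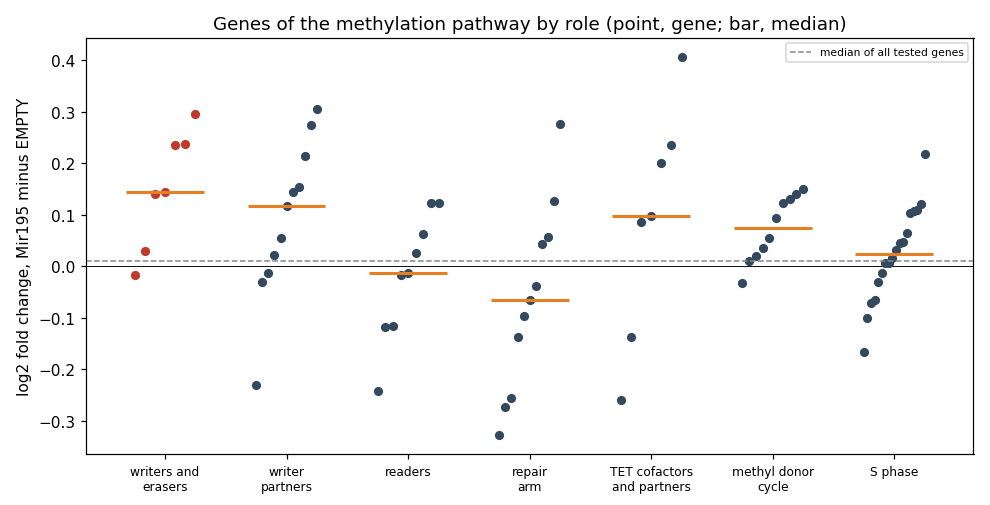
Log2 fold change (*Mir195* minus EMPTY, y axis) of each tested gene of the 7 lists (x axis; point, a gene by its probe of highest mean signal; bar, median of the list; dashed line, median of all tested genes, 0.01). The writers and erasers (red) have a median of 0.14 and their partners one of 0.12, the repair arm lies lowest at -0.07, and no gene of any list was called.

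Likeness of pattern was measured as the root mean square distance between the values of a pair of genes over the 4 arrays, after the mean of each gene was subtracted. With 4 arrays and small differences many genes are alike: of 19036 others, 6961 lay within 0.1 of *Dnmt1*, 4936 of *Tet3*, 4116 of *Dnmt3a*, 3263 of *Tet1*, 2288 of *Uhrf1* and 1298 of *Tet2*. *Dnmt3b* had the fewest, 319, led by *Esm1* (0.0123), *Nfe2* and *Ifrd2*. The nearest to *Uhrf1* were a gene named only LOC100047340, *Bcl11a* (0.00892) and *Nup214*, and to *Tet2* they were *Meis3*, *Nisch* and *Gm5141*. *Dnmt1* was nearest to *Cic*, *Nmnat1* and *Trim11*, *Dnmt3a* to *Ggta1*, *Pstpip2* and *St13*, *Tet3* to *Ajuba*, *Zfp282* and *Syp*, and *Tet1* to a probe without a gene name, *Alyref2* and *Gm15706*.

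The makeup of the cultures was described by summed linear levels of marker lists on the same scale, in the order of the EMPTY and then the *Mir195* arrays. The NK list, with all 7 genes well above background on every array, was lower with *Mir195*, at 29.1 and 26.0 against 21.0 and 23.9. All 7 NK genes had a log2 fold change below 0 (median -0.30), 3 without overlap between the viruses, beside 14.4% of all probes that were lower without overlap. The T cell list summed to 40.3 and 46.1 against 42.8 and 40.7, but most of that sum is *Lck*, and gene by gene all 7 were below 0 (median -0.32), 3 without overlap. These 3 had log2 fold changes of -0.91, -0.80 and -0.61, each with an unadjusted p under 0.05 and an adjusted p of 0.530 to 0.542 in limma. Of all probes, 14.4% were lower without overlap and 2.1% had an unadjusted p under 0.05 in the lower direction in limma. The progenitor list was at 217 and 228 against 231 and 220, with 5 of 7 genes above 0. The myeloid list, in which *S100a8* and *S100a9* were well above background on no array, was lowest on EMPTY replicate 1, at 12.9, and highest on *Mir195* replicate 2, at 15. Of its 6 tested genes, 4 were above 0 and 2 below, with 1 higher and 1 lower on both *Mir195* arrays. The higher one was *Mpo* (log2 fold change 0.72, unadjusted p = 0.0316 and adjusted p = 0.555 in limma). The B cell list summed to between 13.3 and 14.1 on every array, most of it *Blnk*. Within it *Cd79b*, a chain of the B cell receptor complex, read -1.18 and -0.96 with EMPTY and -0.26 and 0.49 with *Mir195* (log2 fold change 1.18, standard error 0.28, adjusted p = 0.530 in limma). Its partner chain *Cd79a* was dim, at -6.18 and -6.14 with EMPTY and -6.35 and -6.71 with *Mir195*. It was well above background on 2 arrays only and passed the filter through 1 virus, so its difference (-0.37, adjusted p = 0.663 in limma) was not read as a change. The list of OP9 stroma was at 10.0, 10.9 and 9.63 on the first 3 arrays and at 17.5 on *Mir195* replicate 2, with *Dcn*, *Lum* and *Pdgfra* of its 10 genes well above background on none. *Alas2* and *Klf1* of the erythroid list and *Fcer1a*, *Mcpt8* and *Ms4a2* of the mast cell and basophil list were also well above background on none, and the sums of these lists were highest on EMPTY replicate 1 (0.264 and 0.531) and lowest on *Mir195* replicate 2 (0.0958 and 0.348). The low erythroid sum depended on 1 probe, that of *Epor*. It read -3.35, -3.25 and -3.26 on the first 3 arrays and -7.93 on *Mir195* replicate 2. For the mast cell and basophil list, EMPTY replicate 2 was nearly as high as EMPTY replicate 1 (0.530). The part of these differences in the values of the writers and erasers was not tested.

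**Figure D4:**
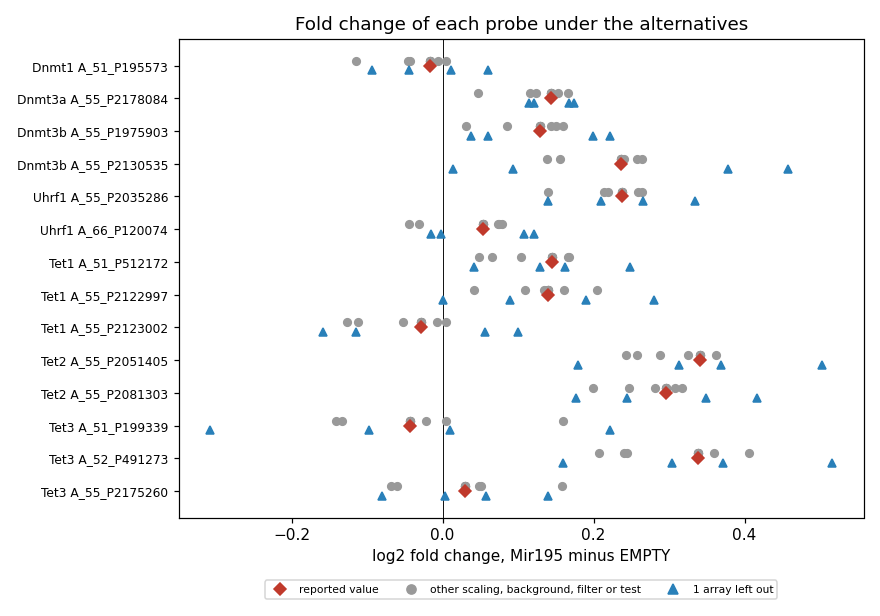
Log2 fold change (*Mir195* minus EMPTY, x axis) of the 14 tested probes (rows) as reported (red diamond), with another scaling, background correction, filter or test (grey circle) and with 1 array left out (blue triangle). Both *Tet2* probes stay between 0.18 and 0.50, whereas points of *Dnmt1*, 1 *Uhrf1* probe, 1 *Tet1* probe and 2 *Tet3* probes fall on both sides of 0.

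The size of change that these arrays leave possible differed between probes. The standard errors from limma draw on the spread of all tested probes. A probe with close replicates such as *Dnmt3a* (SD 0.04 and 0.03) therefore kept one of 0.12. Standard errors ran from 0.12 (*Dnmt3a*) to 0.21 (the brightest *Dnmt3b* probe and a dim *Tet3* probe), with a median of 0.14 for the member probes and 0.15 for all probes. The 95% intervals of the 14 probes lay between 0.665-fold and 1.71-fold, with upper bounds from 1.24-fold for *Dnmt1* to 1.71-fold for *Dnmt3b*. Within these bounds, *Dnmt1* had the value nearest to no change and *Tet2* the farthest, and the 2 were not tested against each other.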

How the data were processed

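RNA levels were read on 4 Agilent mouse arrays with 1 dye, grouped by virus from the sample titles. Spot intensity was deposited by the authors as Feature Extraction gave it (version 11.5.1.1 in the processing notes, 9.1.3.1 in the file header), with background subtracted, and a table of log2 values normalized to the 75th percentile. These log2 values correlated with the values computed here (r = 0.998 per array) and were used as an alternative. Their column medians were -4.454, -4.421, -4.41 and -4.289, so genes were not centred.

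The 75th percentile of log2 intensity was subtracted from each array. The filter kept probes that were well above background on 2 arrays of a virus, less 79 with an outlier spot, which left 23723 (19037 genes). Symbols came from the accession for 26055 probes (GRCm38.p6). The viruses were compared in limma 3.58.1 with lmFit and eBayes (R 4.3.3, with data.table in version 1.17.8), two-sided, with Benjamini-Hochberg adjustment over all tested probes at 0.05. The number of arrays limits the precision. The method was checked on simulated data.

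The genes, lists and alternatives were chosen with earlier results of these data known. Named are all member probes, from each list the 3 genes of largest absolute change, the 3 genes nearest each member, and cell markers. A few genes that this covers are not reported here. *Hells* and *Pcna* were named after their values were seen. Alternatives were other scalings, normexp (offset 50), the authors' table, filters, eBayes with trend, the methods' t-test, replicate blocks, the mean of a gene's probes and each array left out. The position of a probe within its gene was not analysed here.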

Additional observations from a re-analysis of the deposited data

How the results depend on the processing

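No member probe and no gene of the partner lists was called under any of the alternatives. Of 210 alternative values of the 14 member probes, 193 kept their direction and 17 did not. Another filter, eBayes with trend, the t-test and the replicate blocks leave the log2 fold change itself as it was. Their values could therefore not change direction, and the 17 come from the scalings, normexp, the authors' table and the arrays left out. *Dnmt1* became 0.0045 with the 75th percentile over detected probes and ran from -0.094 to 0.06 when each array was left out. The dim *Uhrf1* probe became -0.045 with median scaling and -0.031 with quantile normalization, and ran from -0.015 to 0.12 with an array left out. The *Tet1* probe at -0.03 became 0.0043 with normexp and ran from -0.16 to 0.10. The *Tet3* probe at -0.04 became 0.16 with normexp and 0.0041 in the authors' table, and ran from -0.31 to 0.22. The *Tet3* probe at 0.03 became -0.068 with median scaling and -0.0605 with quantile normalization, and ran from -0.080 to 0.14. The count of member values without overlap fell from 6 to 3 of 14 probes with median scaling, where the median of all probes was -0.08, and was 3 of 7 with the mean of a gene's probes, where fewer values were tested. By that mean, 23.9% of all 19037 genes were higher without overlap and 14.3% lower. The count of member probes without overlap rose to 8 with normexp, to 8 with the 75th percentile over detected probes and to 7 with quantile normalization. The shares of all probes higher without overlap were 39.5%, 26.2% and 21.3% in these settings. The median over members was 0.047 with median scaling and ran from 0.094 to 0.28 with an array left out. Over all probes, the count called rose from 0 to 3 with median scaling and 5 with the replicate block, and ran from 0 to 900 with an array left out, with 900 without *Mir195* replicate 1 and 3 without *Mir195* replicate 2. The cause was not tested. Normexp gave 2 of 14 member probes with an unadjusted p under 0.05 in limma (*Tet2* and *Tet3*), both higher with *Mir195*. Over all 23723 probes it gave 3417 higher and 336 lower. With trend in eBayes, 1 member probe (*Tet2*) was under 0.05, beside 1426 of all 23723 probes higher and 535 lower. Of all probes with an unadjusted p under 0.05, 74.9% were higher with *Mir195*, compared with 57.9% with median scaling, 64.6% with quantile normalization and 91% with normexp; the shares without overlap were 39.5% higher and 10.4% lower with normexp. Deviations of same-numbered arrays correlated at -0.101, so the numbers were not taken as a pairing; with the crossed replicate block, added after seeing the data, 0 probes were called. The *Tet3* probes, with signals of 61.1 to 89.1 on 2 of them, had standard errors of 0.13 to 0.21.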
